A study of Mus musculus with 8 samples.

Results

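The open chromatin of unchallenged mouse kidney tubuloids was described from 4 of the 8 ATAC-seq libraries of the series, those labelled as vehicle-treated. All 4 came from the dissociated renal cortex of wildtype mice, were grown as tubuloids in Matrigel and were collected after 12 h with vehicle. The labelled cell type is renal tubular epithelial cells. ATAC-seq uses the Tn5 transposase to insert sequencing adapters into accessible DNA, and 50000 cells entered each reaction per the labels. The series text gives 4 mice but does not say which libraries came from which mouse, so spreads below are between these libraries and may be technical. No label used here gives the animals' age.

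Accessible chromatin marks places where nucleosomes are displaced. Promoters of widely expressed genes are often CpG rich and open in most cell types, whereas enhancers, and the promoters of segment-specific transporters, are open mainly in the cells that use them. The nephron tubule is lined by segments in series: the proximal tubule reabsorbs most of the filtrate, the loop of Henle dilutes it, and the distal and collecting segments adjust salt, water and acid. All segments share epithelial junctions, cadherins and a set of tubule transcription factors. Tubuloids are cultured epithelial structures that can hold cells of several segments.

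The deposited table held 1 set of 6425 peaks on mm10 for all 8 libraries, so a peak being listed is not a property of the vehicle libraries alone. Every peak was above 0 in at least 1 vehicle library, and 18 peaks were at 0 in at least 1 of them. The values look like reads scaled by a factor per library and rounded to whole numbers, a step that no label states, and the read numbers below rest on that reading. They summed to between 124415 and 126782 per vehicle library, which corresponds to an estimated 130568 to 200680 reads in peaks before scaling. Each vehicle library had a median of 16 per peak, with quartiles of 10 and 25. The 6 library pairs correlated across peaks with r from 0.844 to 0.857 on the log2(value + 1) scale, where peaks are not independent replicates. Among peaks with a mean of at least 40, the median coefficient of variation between libraries was 11.5%, against 12.6% from read sampling alone at the estimated depth. It was 48.5% against 43.8% among the 209 peaks with a mean under 5. Reads amplified without molecular identifiers are not independent molecules, so these sampling values cover counting error only. The median spread among so few libraries tends to fall below the true spread, and the sampling values were not adjusted for this. The 11.5% against 12.6% therefore does not show that libraries varied less than read sampling alone would give.

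Promoter sequence is shown first for genes on which the description turns: Sertad2 and Sp1 from the 15 highest peaks, Cldn3 and Elf3 as epithelial identity genes with a high peak at the assigned start, Cryl1 and Scnn1g as segment genes with a promoter peak, and Cmc2 as a very low promoter. Each line gives the 250 bases before the RefSeq start (GRCm38.p6, the assembly named mm10), 5′ to 3′ on the gene's strand. Capitals mark matches on either strand to any of 12 short motifs. Those found here are the GC box (GGGCGG), bound by Sp and Klf proteins, and the CCAAT box (CCAAT), bound by NF-Y.
Sertad2: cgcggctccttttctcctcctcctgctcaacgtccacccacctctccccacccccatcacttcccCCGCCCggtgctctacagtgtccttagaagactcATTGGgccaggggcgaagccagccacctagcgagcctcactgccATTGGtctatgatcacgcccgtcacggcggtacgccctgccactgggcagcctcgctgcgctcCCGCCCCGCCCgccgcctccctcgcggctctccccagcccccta
Sp1: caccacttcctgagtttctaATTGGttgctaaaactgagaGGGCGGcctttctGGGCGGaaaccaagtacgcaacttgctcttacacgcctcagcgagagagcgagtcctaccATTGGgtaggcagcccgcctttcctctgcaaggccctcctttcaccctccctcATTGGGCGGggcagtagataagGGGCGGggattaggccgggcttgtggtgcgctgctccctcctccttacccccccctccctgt
Cldn3: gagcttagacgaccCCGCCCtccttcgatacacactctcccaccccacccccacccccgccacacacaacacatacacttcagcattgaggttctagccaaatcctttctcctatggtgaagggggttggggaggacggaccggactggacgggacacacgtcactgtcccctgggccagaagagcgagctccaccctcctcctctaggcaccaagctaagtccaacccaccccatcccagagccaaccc
Elf3: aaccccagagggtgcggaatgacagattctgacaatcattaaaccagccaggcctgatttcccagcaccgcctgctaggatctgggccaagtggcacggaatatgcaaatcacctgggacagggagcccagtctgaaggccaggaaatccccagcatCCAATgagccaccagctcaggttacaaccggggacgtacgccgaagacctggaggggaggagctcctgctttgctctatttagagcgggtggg
Cryl1: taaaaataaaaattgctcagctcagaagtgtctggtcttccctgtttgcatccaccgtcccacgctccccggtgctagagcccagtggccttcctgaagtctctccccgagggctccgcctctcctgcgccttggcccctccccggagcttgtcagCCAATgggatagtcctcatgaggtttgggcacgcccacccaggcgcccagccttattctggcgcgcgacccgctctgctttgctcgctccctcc
Scnn1g: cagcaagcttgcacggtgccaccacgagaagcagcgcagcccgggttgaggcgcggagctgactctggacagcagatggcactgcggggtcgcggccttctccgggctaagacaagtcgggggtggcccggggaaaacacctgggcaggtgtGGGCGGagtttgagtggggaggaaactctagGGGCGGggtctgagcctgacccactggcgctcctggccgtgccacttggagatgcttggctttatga
Cmc2: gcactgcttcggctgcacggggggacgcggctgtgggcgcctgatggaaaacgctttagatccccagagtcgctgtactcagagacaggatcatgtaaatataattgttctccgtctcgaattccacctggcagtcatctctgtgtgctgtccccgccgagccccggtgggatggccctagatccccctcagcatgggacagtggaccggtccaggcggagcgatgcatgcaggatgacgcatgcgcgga

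The windows lie at chr11:20542916-20543165 (plus strand) for Sertad2, chr15:102406066-102406315 (plus) for Sp1 and chr5:134985964-134986213 (plus) for Cldn3. Those of Elf3, Cryl1 and Cmc2 lie on the minus strand at chr1:135258473-135258722, chr14:57398484-57398733 and chr8:116921437-116921686, and that of Scnn1g is chr7:121734229-121734478 (plus). The ratio of observed to expected CpG was 0.799 for Sertad2, 0.501 for Sp1, 0.437 for Cldn3 and 0.392 for Elf3. It was 0.624 for Cryl1, 0.628 for Scnn1g and 0.791 for Cmc2, so the lowest of these promoters by value had nearly the CpG ratio of the highest. Sertad2 held 3 GC boxes and 2 CCAAT boxes, and Sp1 held 4 and 3. Cldn3 held 1 GC box and Elf3 1 CCAAT box, while the Cmc2 window held none of the 12 motifs.

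The highest peaks of the vehicle tubuloids were broad, and their genes had mixed roles, from transcription factors to a tight junction protein. The peak with the highest mean of the 4 libraries (chr16:42875022-42875855, 834 bp) was centred 442 bp upstream of the assigned start of Zbtb20, a zinc finger transcription factor. The nearest RefSeq start, 148.5 bp away, was that of a clone gene. The values of this peak were 125, 135, 135 and 113 in libraries 1 to 4 (127 ± 10.5, SD, n = 4). It ranked first in libraries 1 to 3, level with Clec11a in library 3, and below Izumo4 and Sertad2 in library 4. The peak at Sertad2, a SERTA domain transcription coregulator, had values of 108, 122, 131 and 115 (119 ± 9.83, n = 4) over 610 bp. Zbtb20 and Sertad2 overlapped in their library values. Over the Sp1 promoter, where the gene's product is itself a GC-box binding factor, the values were 100, 102, 120 and 102 (106 ± 9.38). Library 3 was the high one there and the others lay within 2 of each other.

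Clec11a, encoding a secreted C-type lectin growth factor, carried the highest peak after Sertad2 (103, 119, 135 and 103, 115 ± 15.3), and this one was centred 1689 bp inside the gene from its assigned start. Izumo4 followed at 114 ± 9.38, centred 143 bp from its assigned start, where the nearest RefSeq start was that of Mob3a at 507 bp. Next was Kctd9, a BTB domain gene, at 112 ± 10.7, with a peak centred 12 bp from its assigned start. That peak also overlapped the span of Cdca2. After Sp1 came Garnl3 at 101 ± 10.5, the RNA-binding protein gene Khsrp at 99 ± 4.97, the kinase gene Gsk3b at 98.25 ± 9.74 and the lipid phosphatase gene Mtmr4 at 97.5 ± 10.6. Slc27a1, a fatty acid transport protein gene, reached 97 ± 7.44 at a peak 1403 bp from the assigned start and 309 bp from a RefSeq start. Hdgfl2 (96.75 ± 8.73, also 26 bp from the RefSeq start of Ubxn6), Abtb1 (95.5 ± 15.5), Cldn3 (94.5 ± 12.6) and Zfp78 (94.25 ± 7.37) completed the 15. Each of the 15 overlapped its neighbour in the order across libraries, so the order of neighbours is not resolved beyond the spread.

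**Figure D1:**
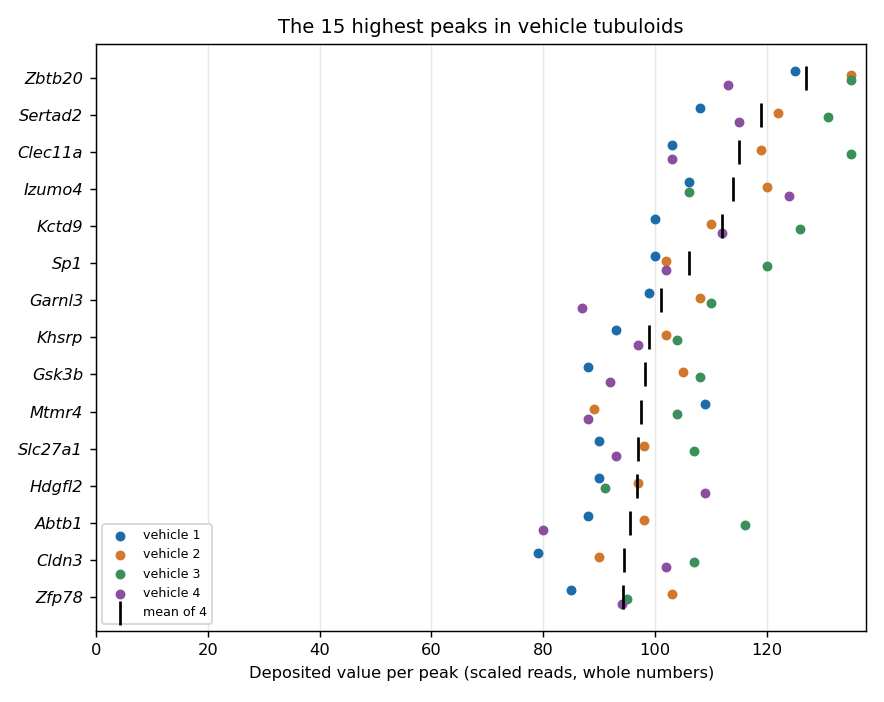
Deposited value per peak (x axis, scaled reads) of the 15 highest peaks by the mean of the 4 vehicle libraries; points are libraries, shifted vertically to keep them apart, and the black bar is the mean. Neighbouring peaks overlap, from Zbtb20 at a mean of 127 to Zfp78 at 94.25.

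The 100 highest peaks (means from 64.25 to 127) held between 6.10 and 6.75% of the summed value in each library (6.37 ± 0.286%, n = 4). Of these peaks, 84 lay within 1000 bp of an assigned transcription start site, 8 were assigned to a gene farther away and 8 had no assigned gene. Leaving out any 1 library kept 94 to 97 of the 100. When the 100 were chosen from 3 libraries, 77 to 85 were also among the 100 highest of the library left out. The first overlap was high in part by construction, because the compared means share 3 libraries. For each library left out, most of the 100 chosen from the others were thus also among its own highest.

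Scaled by width, a partly different set led. The highest value per 100 bp was 21.8 at a 308 bp peak by the start of Znf687, a zinc finger gene, with library values of 70, 64, 67 and 67 (67 ± 2.45). Kctd9 was next at 21.4 per 100 bp and Hibch, a valine breakdown enzyme gene, had 19.7 (72, 74, 63 and 56). Sertad2 had 19.5, and a peak without an assigned gene at chr5:32733988-32734247 had 19.9 (58, 40, 50 and 59). Across all 6425 peaks the value per 100 bp ran from 0.397 to 21.8 with a median of 7.75. Ranked this way, 68 of the 100 highest lay near a start site, and the 100 held 4.56% of the summed value.

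Peaks without an assigned gene included some of the highest. The top 1, at chr5:135962373-135962980, lay inside the span of the scavenger receptor gene Ssc4d and 11799.5 bp from the nearest RefSeq start, with values of 78, 97, 84 and 89 (87 ± 8.04). A peak within Rxra, the retinoid X receptor alpha gene, at chr2:27744676-27745145 had values of 68, 80, 85 and 82 (78.75 ± 7.46) at 35618.5 bp from a RefSeq start. Another lay within Acaca, an acetyl-CoA carboxylase gene of fatty acid synthesis, at chr11:84179390-84180204 (71, 70, 78 and 64, 70.75 ± 5.74). All 3 stood among the 100 highest although none lay within 10000 bp of a listed RefSeq start. The RefSeq promoters lack some genes, so a nearer start that is not listed remains possible. By contrast, the peaks within Kat6b (79.5 ± 4.04) and Ptprs (71 ± 5.60) lay 863 and 73.5 bp from a RefSeq start that the table did not assign. The peak at chr7:28570311-28570723 within the kinase gene Pak4 (54 ± 6) and that at chr2:103144352-103144760, with Apip the nearest coding gene (53.75 ± 6.8), came next among peaks over 10000 bp from a RefSeq start. Exons and introns were not used here.

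Little or no signal was found at the other end. The lowest peak, at chr5:45731358-45731483 in the span of Lcorl, had values of 1, 0, 1 and 0, and a second at chr5:45730436-45730644 in the same gene had 1 in each library. A pair of peaks within Hs3st4, a heparan sulphate sulphotransferase gene, had means of 1.5, with values of 1, 1, 4 and 0 and of 1, 1, 3 and 1. Of the other 6 among the lowest 10, those nearest to Fbxo2 and Sub1 had means of 1, that nearest to Kcnk2 1.25, that within Panx1 1.5 and that with Adgra3 as nearest coding gene 1.75. The sixth was a peak 623 bp inside Psme4, a proteasome activator gene, at 0, 2, 1 and 2. At this depth such values are a few reads, and their order is not resolved.

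The 100 lowest peaks had means up to 4, a median width of 115.5 bp and 51 members near a start site, and 23 peaks tied at the boundary, of which 8 were kept by table order. Leaving out 1 library kept 74 to 83 of them. Low peaks near coding gene starts, named after their values were seen, included Cmc2 (2, 3, 0 and 3), a mitochondrial factor gene, and Slc2a4, the insulin-regulated glucose transporter gene (3, 1, 4 and 1). Psmc6, a proteasome subunit gene, had 1, 2, 5 and 1, and Stk16 had 7, 2, 0 and 1. A low peak did not mean a low gene: Fbrs had one peak at 2.25 ± 1.89 and another, 1243 bp upstream of its start, at 82 ± 13 (76, 89, 96 and 67).

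Most of the signal lay at promoters, and the value per peak differed between position classes around the start. Peaks within 1000 bp of the assigned start numbered 4162 (64.8%) and held 70.5 ± 0.489% of the summed value (n = 4). Their median value was 17, 17, 17 and 18 in libraries 1 to 4, against 13, 13, 14 and 13 for the other 2263 peaks. The log2 ratio of these medians was 0.38 ± 0.08 (SD, n = 4), above 0 in 4 of 4 libraries. A two-sided exact sign-flip permutation test over libraries gave p = 0.13, the smallest that 4 libraries allow. Per 100 bp of width the log2 ratio was 0.07 ± 0.03. Over peaks with an assigned gene alone it was 0.20 ± 0.09 on the value per peak. Per 100 bp that last order was reversed, with medians of 7.87 for near peaks and 8.19 for those assigned farther away.

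Among the others, 615 peaks assigned to a gene at more than 1000 bp (up to 5178 bp) had a median of 14.75, and the 1648 with no assigned gene had 12.75. The second class was mixed. Of these, 227 lay within 1000 bp of a start in the RefSeq promoter table and had a median of 16.25, while 1369 did not and had 12.25. For the remaining 52, on a chromosome for which no promoters were used, the median was 13.6. The 623 unassigned peaks away from RefSeq starts and outside coding gene spans had the lowest median of these classes, 11.5, and none of them was among the 100 highest.

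Peak centres gathered just upstream of the start. Their median position was 37 bp upstream, and 63.7% of the 4162 lay on the upstream side. Density was greatest in the last 50 bp before the start, with 775 peaks, but the value was not: these had a median of 14.75 and a median width of 198 bp. Peaks centred 150 to 250 bp upstream had the highest median of the 12 position classes, 24.5 (26, 25, 24 and 24 by library), with a median width of 304 bp. A second, lower maximum of the value per peak lay 100 to 150 bp downstream at 20.9 with a width of 299.5 bp. Per 100 bp the same upstream class had 8.33, the last 50 bp 7.75 and the downstream class 7.23. The classes 100 to 150 bp and 250 to 500 bp upstream had 8.44 and 8.37. Neither the upstream nor the downstream maximum was thus seen on that scale. The 2618 peaks that covered the start base had a median of 19.75, and the 1544 that lay beside it had 13.75.

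**Figure D2:**
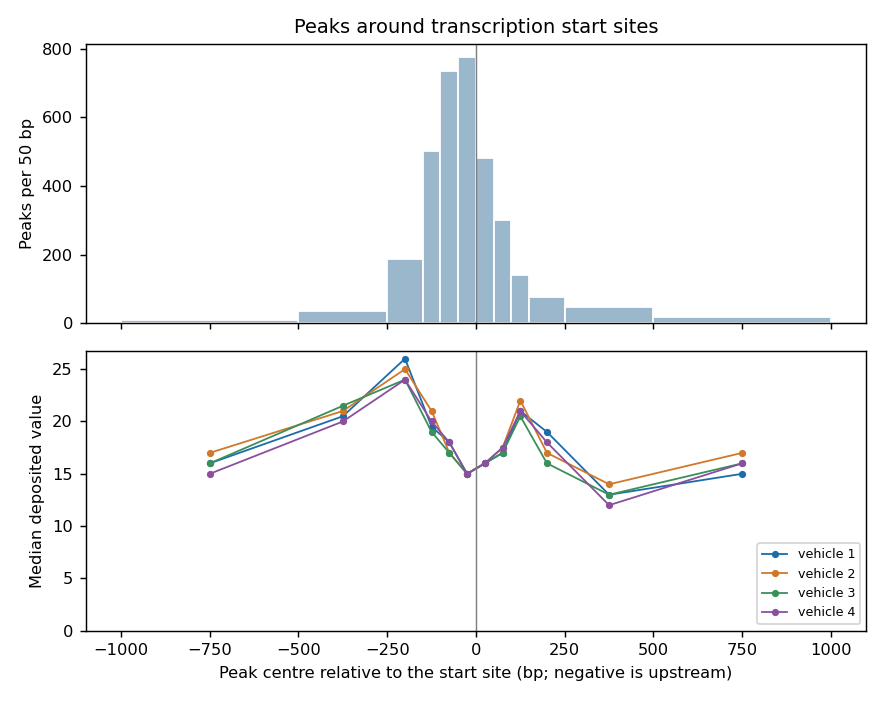
Upper panel, number of peaks per 50 bp by position of the peak centre relative to the assigned start site; lower panel, median deposited value per position class in each of the 4 vehicle libraries, drawn at the class centre. Peaks are densest just upstream of the start, while the median value per peak is highest 150 to 250 bp upstream, at 24.5 over the 4 libraries. Per 100 bp of width that class, at 8.33, is not the highest.

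Start sites that face away from each other were looked at after the values were seen. The 523 peaks between head-to-head RefSeq starts within 500 bp of each other had a median value of 19.75 and a width of 257 bp. The 2886 other near peaks with a RefSeq start had 17.25 and 220 bp. Per 100 bp the medians were 8.06 and 7.80.

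Peak width carried most of the order in peak value. Across peaks, value and width had a Spearman rho of 0.872, given as a description because a wider window collects more reads. Peaks wider than the median of 204 bp had a median value of 25 in each of the 4 libraries and the others 10 in each, a log2 ratio of 1.32 (p = 0.13, two-sided exact sign-flip permutation test, the smallest possible). Because a wider window collects more reads in any library, this sign was expected in advance and the test decides nothing. The value per 100 bp was also higher in wide peaks, with a log2 ratio of 0.23 ± 0.03. In 5 groups of rising width the median value per 100 bp was 6.74, 7.30, 7.89, 8.30 and 8.66. Of the 100 highest peaks, 48 were among the 100 widest.

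Within width groups the promoter difference was small. In the narrowest group (92 to 133 bp), peaks near and away from a start had equal medians of 7.75, and in the next groups 11.25 against 11.25 and 16 against 16. Near peaks were higher in the last groups, at 22.75 against 22 and, from 316 bp upward, 36 against 33.5. The share of peaks near a start rose with width from 52.8% to 78.4%. This split was added after the data were seen. How the peak borders were set is not given in the sources used here, so width and read number cannot be told apart as measures of openness.

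**Figure D3:**
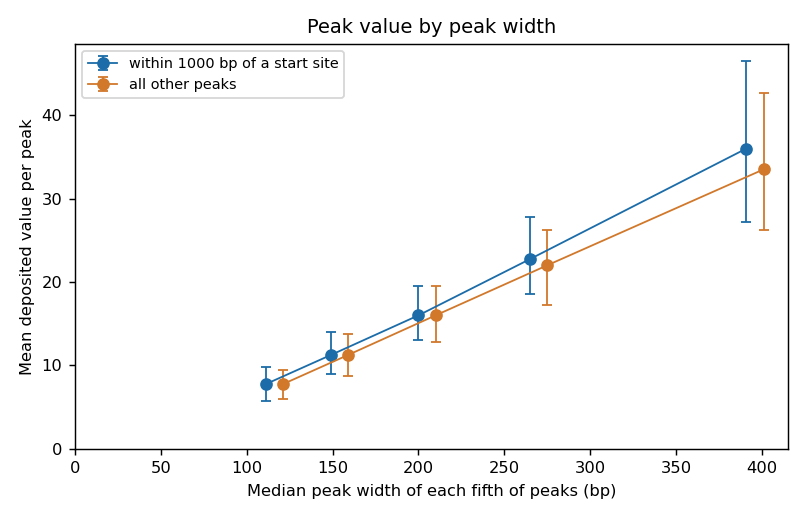
Mean deposited value per peak (median, with bars to the quartiles) against the median width of 5 width groups, for peaks within 1000 bp of an assigned start site and all others; the series are shifted by 5 bp to either side. Medians coincide in the narrow groups and reach 36 against 33.5 in the widest.

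A few peaks broke the relation to width. The widest of all, 1442 bp at chr17:18090823-18092264 in the span of the vomeronasal receptor gene Vmn2r91, had values of only 10, 6, 8 and 17. Next came 1274 bp at chrX:109059087-109060360, with 10, 6, 8 and 7 and a value per 100 bp of 0.608. Gsk3b, at 933 bp, was the widest after these and reached 98.25.

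Most genes with a peak had 1, but 206 had 2 and 8 had 3. Ing1, a chromatin reader gene, summed to 139 over its 3 peaks, above any single peak in the table. Fbrs summed to 98 and Sertad3 to 69.25. The immediate early gene Egr1 had 3 peaks of 6.5 to 22 (summed 45.25), and Smad6, an inhibitory Smad gene, 3 of 11.25 to 16.5. The set was picked after the peak numbers were seen.

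Gene families differed widely in how many members had a promoter peak. A peak within 1000 bp of the start was assigned to 3828 of 21896 coding genes (17.5%), with a median value over such peaks of 17.5 and 7.87 per 100 bp. In the MAP kinase cascade, which relays growth and stress signals, 27 of 54 genes had one (50.0%), led by Map3k3 at 73, 72, 99 and 72. The level of that family was not high: its median was 13.75, or 7.85 per 100 bp. Rab GTPases, the switches of vesicle traffic, had peaks at 22 of 59 genes with a median of 27.75, or 9.21 per 100 bp. Rab40c was the highest, at 79, 97, 110 and 78 (mean 91), and Rab8b the lowest, at 6.

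Protein synthesis and folding genes were also often represented. Translation initiation factors had peaks at 20 of 56 genes (median 18.25, 8.89 per 100 bp), with Eif4g2 the highest at a mean of 47.25. Cytosolic ribosomal proteins had them at 31 of 91 (median 13.75, 7.26 per 100 bp), from Rpl5 at 2.5 to Rpl13a at 51.75, and mitochondrial ribosomal proteins at 22 of 78, led by Mrpl41 at 44.75. DnaJ and heat shock genes, the chaperones, had them at 24 of 72, led by Hsp90b1 at 54.5. Spliceosome genes had them at 16 of 45, and their median of 12, or 6.51 per 100 bp, was below that of all coding genes. Snrpd3, a core small ribonucleoprotein gene, was the highest of that family at 25.5. RNA polymerase subunits had peaks at 9 of 28 genes (Polr2h 35.5), DEAD and DEAH box helicases at 16 of 53 (Ddx39a 36.5) and Mediator subunits at 7 of 30 (Med11 43).

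Genes that tag or degrade proteins came next. Ubiquitin conjugation and removal genes had peaks at 36 of 93 (38.7%), with Usp22, a deubiquitinase of the SAGA coactivator, highest at 80, 75, 82 and 79. Among proteasome genes 16 of 51 had them, and the extremes were both activator subunits, Psme2 at 74.75 and Psme4 at 1.25. F-box genes had peaks at 22 of 78, led by Fbxo24 at 66. Anaphase-promoting complex and Cdc genes had peaks at 12 of 42 (28.6%, Anapc4 44.5). Kinesins had them at 7 of 38 (18.4%, Kif11 18), close to the 17.5% of all coding genes.

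Zinc finger genes of the Zfp series had peaks at 96 of 397 (24.2%), at a median of 15, with Zfp78 highest and Znf146 lowest at 2.5. Zscan and Zkscan genes had them at 8 of 27, led by Zkscan5 at 45.75. Respiratory complex I genes, which matter in mitochondria-rich tubule cells, had peaks at 13 of 49, from Ndufb6 at 7.25 to Ndufs8 at 37.25. Solute carriers, the family of most tubule transporters, were close to the share of all coding genes, at 64 of 375 (17.1%). Their median of 12.25 was lower per peak than that of all coding genes but near it per 100 bp, at 7.63. Slc1a4, a neutral amino acid transporter gene, had the highest peak of the family within 1000 bp of an assigned start, at 66, 63, 82 and 67, and Slc2a4 the lowest.

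The lowest shares were mostly in families used by other tissues, but not only there. None of 1110 olfactory receptor genes and none of 39 Hox genes had a promoter peak. Vomeronasal receptors had 1 in 355 (Vmn1r4), protocadherins 1 in 69 (Pcdhgc3), keratins 1 in 53 (Krt23 at 5.75) and collagens 1 in 44 (Col16a1 at 21.25). Potassium channels had peaks at 4 of 94 genes, cytochrome P450 genes at 5 of 99 (Cyp51a1, of sterol synthesis, at 27), histone genes at 7 of 96 (H2az2 48.25) and interleukin and receptor genes at 7 of 83 (Il6st 25.5). Claudins, the tight junction family of epithelia, had them at 4 of 35 (11.4%), and vacuolar protein sorting genes, which are widely used, at 5 of 35 (14.3%, led by Vps8 at 31.75). ATP synthase genes, at 3 of 17 (17.6%), were not among the low families and lay close to the 17.5% of all coding genes. Many histone genes have near-identical copies. How reads with several matches were treated is not given in the sources used here, and its part in the histone count was not tested. On chromosome X, 65 of 966 coding genes had a promoter peak (6.73%) and the median value over its 100 peaks was 10.6. On the other chromosomes listed the share ran from 15 to 22.2%.

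**Figure D4:**
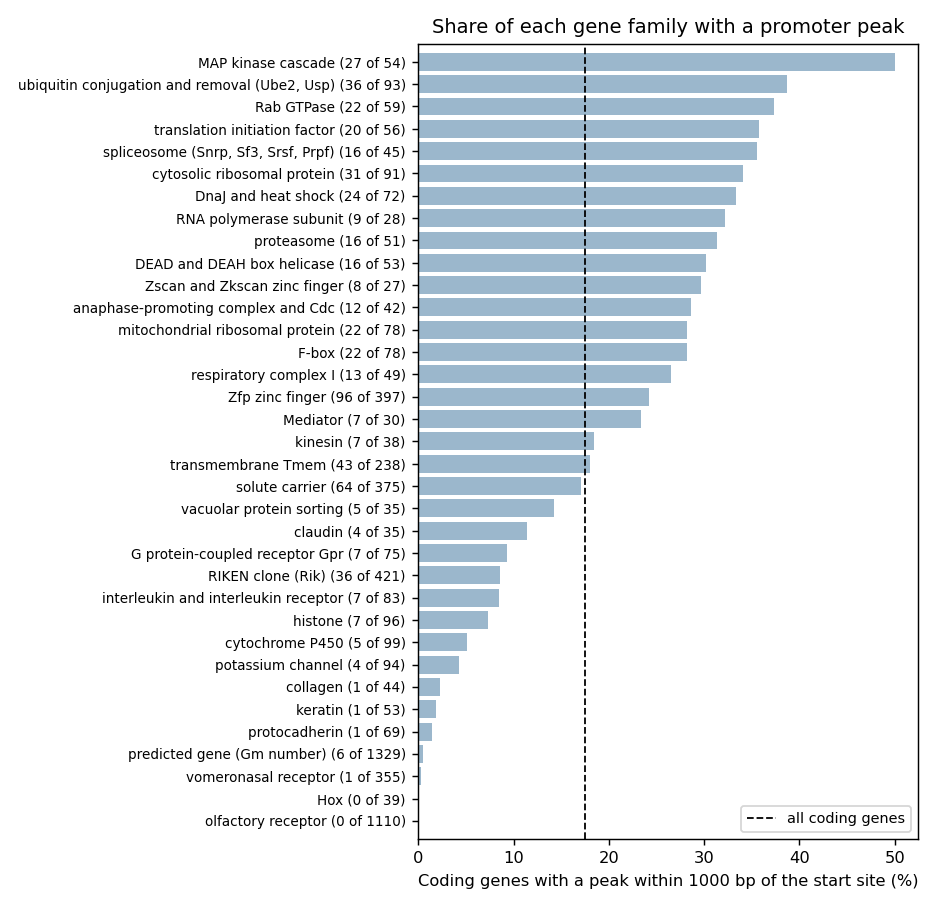
Share of coding genes (x axis, %) with a peak within 1000 bp of the assigned start site, for families of at least 20 genes; numbers in brackets are genes with a peak of all genes, and the dashed line is the share of all coding genes (17.5%). MAP kinase cascade genes lead at 50.0%, and olfactory receptor and Hox genes have none.

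Tubule identity genes were used to check the label. Of 135 genes in 6 lists, 19 had an assigned peak (14.1%), against 4146 of 21896 coding genes (18.9%) and 16 of 31 housekeeping genes (51.6%). Since 15 of those 31 widely expressed genes, Eef2, B2m and Hprt among them, had no assigned peak either, absence from the table did not separate closed promoters from ones too weakly sampled to be listed. In a bulk library a peak open in few cells and one weakly open in many cannot be told apart.

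The split between shared epithelial genes and segment genes was clear in the counts. Tubule and epithelial regulators and junction genes had a peak in 14 of 32 cases (43.8%), and genes of the 5 segment lists in 5 of 103 (4.85%). By segment the counts were 1 of 49 for the proximal tubule, 0 of 14 for the loop of Henle, 1 of 13 for the distal convoluted and connecting tubule, 3 of 13 for principal cells and 0 of 14 for intercalated cells. Podocyte, endothelial, fibroblast and pericyte, immune and non-kidney lineage lists had 0 of 57 with an assigned peak, although 3 of these genes had an unassigned peak inside their span.

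Cldn3, a claudin of epithelial tight junctions, had by far the highest value of the identity genes, at 79, 90, 107 and 102 (94.5 ± 12.6, n = 4), and 17.2 per 100 bp. Its peak at chr5:134985733-134986280 was centred 207 bp upstream of the start and covers the whole window printed above. The lowest library there exceeded the highest library of every other identity gene with an assigned peak. Cldn7 had 13, 19, 14 and 22 (17 ± 4.24). The only assigned peak of Cldn4, whose gene neighbours Cldn3 on chromosome 5, lay 4571 bp from its start and had 1, 6, 2 and 4 (3.25 ± 2.22).

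Elf3, an epithelial ETS transcription factor, had 48, 63, 56 and 44 (52.75 ± 8.46) at chr1:135258409-135258832. The epithelial splicing factor genes both had peaks. Esrp2 had 36, 50, 50 and 51 (46.75 ± 7.18) at a peak 1771 bp inside the gene, which is 197 bp from the RefSeq start of a neighbouring clone gene. At its own start Esrp2 had 15.25 ± 4.43, and Esrp1 had 18, 30, 22 and 19 (22.25 ± 5.44) at its start. Grhl2, a grainyhead factor of epithelial junction genes, was lower at 12.25 ± 4.79, 1425 bp inside the gene, and 6.75 ± 1.26 at the start. The library values of Elf3 did not overlap those of Esrp1 or Grhl2.

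Adhesion genes of the epithelium followed. Cdh16, the kidney-specific cadherin, had 40, 32, 40 and 34 (36.5 ± 4.12) at chr8:104624254-104624615. Cdh1, E-cadherin, had 24, 22, 21 and 32 (24.75 ± 4.99), and Epcam 13, 23, 21 and 28 (21.25 ± 6.24). Cdh16 was at or above the highest Cdh1 value in all 4 libraries.

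Kidney transcription factors were partly represented. Esrra, a nuclear receptor of mitochondrial genes, had 32, 31, 36 and 38 (34.25 ± 3.30), and Pou3f3, a POU factor of the loop and distal nephron, had 26, 27, 19 and 29 (25.25 ± 4.35). Sim1 had 18 ± 2.16 and Pax2, an early nephric regulator, 12, 22, 20 and 17 (17.75 ± 4.35). The library values of Sim1 lay within the range of those of Pax2. Pax8, Lhx1, Hnf4g, Ehf, Tfap2b and Irx3 had no assigned peak, nor did Krt7, Krt8, Krt18, Krt19, Cldn8, Ocln, Tjp1, Crb3, Mal, Mal2 and Ppargc1a. Inside the spans of Ppargc1a and Tjp1 lay unassigned peaks of 7 ± 1.83 and 16.25 ± 2.75.

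Segment genes with a peak were few. For the proximal tubule, Cryl1, a crystallin-family enzyme gene of sugar metabolism, had 20, 20, 22 and 16 (19.5 ± 2.52) at its start, chr14:57398467-57398662. Sgms2, a sphingomyelin synthase gene, stood for the distal list at 20, 20, 17 and 28 (21.25 ± 4.72). Among principal cell genes, Scnn1g, the gamma subunit of the epithelial sodium channel, had 13, 14, 23 and 14 (16 ± 4.69), with library 3 high. Tfcp2l1, a collecting duct transcription factor, had 15, 14, 11 and 11 (12.75 ± 2.06).

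Nr3c2, the mineralocorticoid receptor gene, had the highest value of the segment lists, at 57, 54, 55 and 58 (56 ± 1.83) over 582 bp. The table placed this peak 2651 bp from the gene's start, whereas the nearest RefSeq start, also of Nr3c2, was 237.5 bp away. Its lowest library was above the highest library of the other 4 segment genes with an assigned peak.

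**Figure D5:**
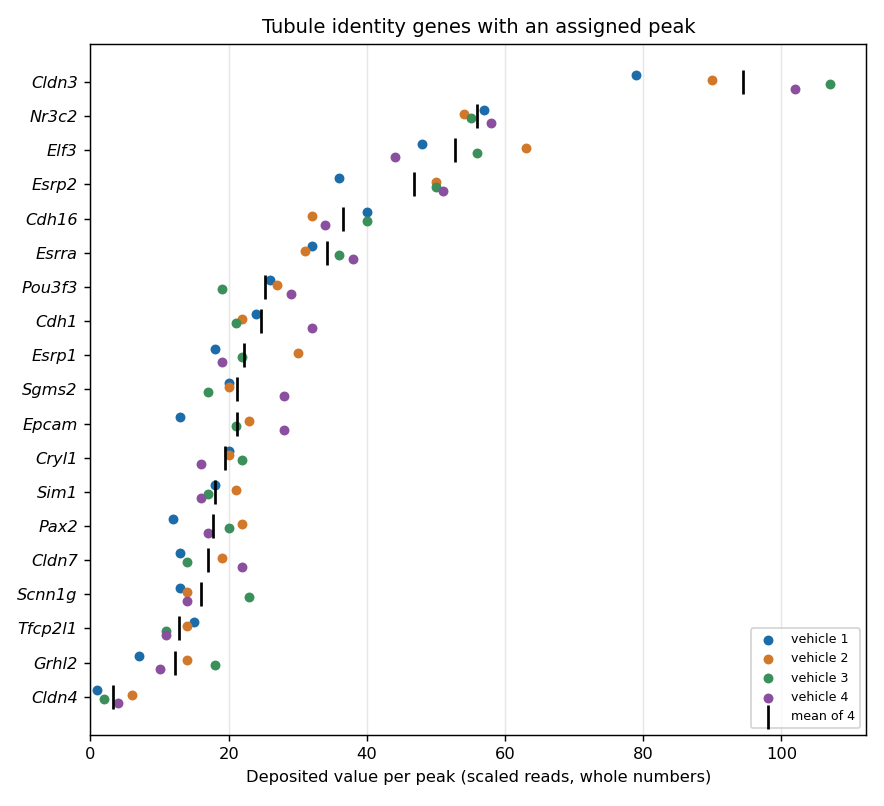
Deposited value per peak (x axis, scaled reads) in each of the 4 vehicle libraries for the 19 tubule identity genes with an assigned peak, using the highest peak of each gene; the black bar is the mean of 4. Cldn3 stands apart at 79 to 107, and the others run from 1 to 63.

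A second reading, by the RefSeq starts of the 99 identity genes found in the promoter table, added 2 genes. A peak with no assigned gene at chr13:73692449-73692801 was centred 11 bp from the RefSeq start of Slc6a19, the neutral amino acid transporter of the proximal tubule brush border. Its values were 52, 50, 62 and 58 (55.5 ± 5.51), which placed it 168th of all 6425 peaks. It was the highest value at a gene of the proximal tubule list, and the table's own gene column does not show it. A peak 125 bp from a start of Gata3, a collecting duct and distal regulator, had 16, 17, 24 and 18 (18.75 ± 3.59), and the table gives that peak to a neighbouring clone gene. With these, 21 of 135 identity genes had a peak at or near a start or an assigned one.

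Defining transport genes of each segment had no assigned peak. In the proximal tubule these were the endocytic receptors Lrp2 and Cubn, the phosphate transporter Slc34a1, the sodium-glucose transporter Slc5a2, the water channel Aqp1 and the regulators Hnf4a and Maf. In the loop they were Umod and Slc12a1, the target of loop diuretics. In the distal and connecting tubule they were Slc12a3, the thiazide-sensitive cotransporter, with Pvalb and Calb1. In principal cells Aqp2, Scnn1a and Scnn1b had none, and in intercalated cells Foxi1, Slc4a1 and Slc26a4. Peaks that the table gave to no named gene lay inside the spans of a few segment genes, with Slc12a3 at up to 9.5 ± 3.70, Trpm6 at up to 16.75 ± 2.99, Kcnj1 at 10 ± 3.56 and Slc5a1 at 15.75 ± 4.79. Such peaks lay at 4 of the 103 segment genes and at 3 of the 57 genes of other cell types. Those 3 were the endothelial receptor gene Flt1 at up to 15.5 ± 4.43, the podocyte gene Synpo at 11.5 ± 3.11 and the neuronal gene Rbfox3 at 12.25 ± 2.22.

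Of 33 injury and growth genes, 8 had an assigned peak (24.2%), a share near the 18.9% of all coding genes. The AP-1 gene Jun led at 35, 42, 42 and 40 (39.75 ± 3.30), with a second peak of 22.25 ± 4.92, followed by Klf6 at 31.5 ± 2.08. Clu, the clusterin gene, had 21, 21, 21 and 17 (20 ± 2.00), Prom1 19 ± 2.16, Pdgfb 14.75 ± 5.74, Cd24a 14.5 ± 2.52 and Sox4 12.75 ± 4.27. The proliferation gene Mki67 varied most of these, at 16, 18, 4 and 12. The stress factor gene Atf3 had an unassigned peak 125.5 bp from its RefSeq start, at 30, 41, 30 and 34 (33.75 ± 5.19). Havcr1, Lcn2, Vcam1, Sox9, Krt20 and Spp1, common markers of injured tubules, had no assigned peak.

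Genes of the primary cilium, the sensory organelle whose defects cause cystic kidneys, had a peak in 12 of 39 cases (30.8%), against 18.9% of all coding genes. Among them Ift27, an intraflagellar transport gene, had 29, 40, 41 and 40 (37.5 ± 5.69). Pkd1, the main gene of dominant polycystic kidney disease, had 34, 36, 38 and 30 (34.5 ± 3.42), and Invs 33.25 ± 3.40. Ift57 had 31.25 ± 2.22, Ift140 26.5 ± 3, Arl13b 21 ± 2.94, Bbs2 19.5 ± 2.38, Bbs10 15.75 ± 1.26, Tmem231 15.75 ± 1.89, Ift172 13.75 ± 3.10 and Kif3a 9 ± 3.16. Pkd2 and Pkhd1 had none. A further 4 cilium genes shared a peak with a neighbour at a RefSeq start: Rpgrip1l with Fto (41.25 ± 6.94), Cep290 with Tmtc3 (27.25 ± 3.59), Nphp4 with Kcnab2 (13.25 ± 6.34) and Ift20 with Tnfaip1 (11.25 ± 3.30).

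Housekeeping genes give the scale for these values. Their highest peak ran from 7 ± 2.94 at Actb, where the listed peak was 93 bp wide and 777 bp from the start, to 51.75 ± 7.32 at Rpl13a, with a median of 24. Gapdh had 23, 36, 26 and 29 (28.5 ± 5.57). Cldn3, Nr3c2, Elf3 and the Slc6a19 start were above Rpl13a by mean, although the library values of Rpl13a (46, 52, 62 and 47) overlapped those of all but Cldn3. Per 100 bp, a scale that still rises with width but less than the value per peak, Rpl13a had 11.3, Cldn3 17.2, the Slc6a19 start 15.7, Elf3 12.4 and Nr3c2 9.62, so Nr3c2 was the lower on that scale. Cdh16 had 10.1 per 100 bp, Esrra 10.4, Scnn1g 8.84 and Sim1 5.92, against 7.75 for the median peak.

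Promoter sequence was compared between openness groups for 2785 coding genes whose peak lay over their RefSeq window, split into 3 groups of equal size by value. The median CpG ratio did not follow the value: it was 0.794, 0.792 and 0.794 from the upper to the lower group. In the same order the share with a ratio of at least 0.6 was 86.1, 83.3 and 82.2%. Median GC content also fell, at 64, 63.2 and 61.6%. The median ratio was 0.398 for 13497 coding genes with no peak and 0.536 for all 17491 promoters used. Among the genes with no peak, 4774 still had a ratio of at least 0.6, so many CpG-rich promoters were not in the table.

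GC boxes and CCAAT boxes were more common with higher value. For each motif the shares are given for the upper, middle and lower group, then for CpG-rich promoters with no peak and for all promoters. The GC box was in 80.5, 76.0 and 69.1%, then 65.5% and 42.7%. For the CCAAT box the shares were 55.1, 50.9 and 43.3%, then 29.5% and 36.3%. The ETS motif (CCGGAAG) ran the other way, at 15, 16.8 and 18.5%, then 14.6% and 9.12%, and so did the motif of NRF1, at 0.538, 1.62 and 3.88%, then 1.93% and 1.06%. The TATA box (TATAAA) was in 3.34, 1.62 and 4.53%, then 6.33% and 12.4%. For the AP-1 motif (TGANTCA) the shares were 3.01, 3.88 and 4.85%, then 2.97% and 6.22%, so the groups with a peak were below all promoters but not below CpG-rich promoters with no peak. Both strands were read, and motifs may overlap. These shares are descriptions of letters in 250-base windows. Peak width differed between the groups, with medians of 364, 233 and 141 bp, as did GC content. The part of either in the motif shares was not tested.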

How the data were processed

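ATAC-seq was measured in 4 vehicle-treated tubuloid libraries. The authors' deposited values are whole numbers per peak and library, treated here as a score, because their pattern is that of scaled and rounded reads and not of raw counts, though no label states this step. Totals differ little between libraries, and each column skips or over-uses whole numbers at regular steps. The factor of each column was estimated from those steps as 0.748, 0.624, 0.971 and 0.732 for libraries 1 to 4. On 16 simulated columns of all peaks the largest error of that estimate was 0.19%. Dividing by the factor gave estimated reads. Per the submitters' processing notes, reads were handled with DESeq2 1.36.0, featureCounts, Picard 3.0.0, STAR 2.7.10a and Trimmomatic 0.39 (in alphabetical order), on mm10. Their roles, the peak caller, the handling of duplicates and any shift for the Tn5 insertion site are not given in the sources used here.

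Peaks were ranked by the mean of the 4 columns, with no filter. Distances and genes are those of the deposited table. Width is stop minus start plus 1. Classes were compared per library by log2 ratios of medians, with a two-sided exact sign-flip permutation test. No count model was used. Of 4179 gene symbols in the table, 4047 matched a RefSeq table of GRCm38.p6 directly, 101 by synonym and 10 by a span overlapping at least 80% both ways, and 21 did not match. Of the peaks with a gene, 386 had no symbol. Promoter windows and starts came from RefSeq promoters of the same assembly, which lack some genes. Python 3.11.15, numpy 2.4.6, pandas 2.3.3, scipy 1.17.1 and matplotlib 3.10.9 were used.

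The members, lists and families were chosen with earlier results of these data known. Family patterns and the symbol matching were revised after first counts were seen, which moved Zfp genes with a promoter peak from 57 to 96 and all coding genes from 3720 to 3828. The promoter window was set to 250 bases after a first look. Named were the 15 highest and 10 lowest peaks, the 5 highest per 100 bp, the 5 highest with no gene and the 5 highest over 10000 bp from a start, the highest gene of each family with at least 5 peaks, list genes with a peak, and defining genes without one. A few items under this rule are not reported here. No peak was assigned at over 10000 bp, so RefSeq starts were used for that class. Alternatives were other summaries, windows, filters and rankings, and each library left out.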

Additional observations from a re-analysis of the deposited data

Results flagged for a closer look

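Of 103 peaks named or listed above, 7 had 1 library far from the other 3, against 5.15 that chance gives, and several of them are ties of small whole numbers. The single library was the highest at Sp1 (120 in library 3, against 100 to 102), at Scnn1g (23 in library 3, against 13 and 14), at the Hs3st4 peak chr7:124294049-124294267 (3 in library 3, against 1) and at chr5:50641752-50641877, whose nearest coding gene is Adgra3 (4 in library 3, against 1). It was the lowest at the Esrp2 peak inside the gene (36 in library 1, against 50 and 51), at Clu (17 in library 4, against 21) and at Ift27 (29 in library 1, against 40 and 41). Library 3 had the fewest estimated reads, 130568, and its part in these values was not tested.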

How the results depend on the processing

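Of 53 alternative values, 46 kept their direction and side of the threshold or moved little, but several were much smaller. Near against other peaks gave a log2 ratio of 0.07 per 100 bp and, by value per peak, 0.20 over assigned peaks. Wide against narrow peaks gave 0.23 per 100 bp. Within width groups the log2 ratio of near to other peaks was 0 in the narrowest group and -0.022 in the middle group, and the cause was not tested. Ranking by value per 100 bp gave a share of 4.56% for the 100 highest peaks and 68.0 near a start. Ranking on 3 libraries and reading the share in the one left out gave 6.07% for library 1 and 6.68% for library 3. Taking the nearest coding gene within 50000 bp gave 32 identity genes with a peak. Without any 1 library, the near against other log2 ratio ran from 0.35 to 0.41, the wide against narrow ratio stayed at 1.32, the share of the 100 highest from 6.25 to 6.46%, and the near-start members from 83 to 85 of the highest and 46 to 49 of the lowest 100. With a window of 100 bp the near against other ratio was 0.05 ± 0.09, and with 5000 bp 0.42 ± 0.06. Splits by width, RefSeq starts and ranking on 3 libraries were chosen after seeing the data. No paired analysis was possible because only the vehicle group was used. Depth limits the low peaks, and 4 libraries cannot give a sign-flip p under 0.13.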
